A study of Mus musculus with 15 samples.

Results

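The proteins that coat lipid droplets, and those that help droplets form and fuse, were followed as 8 transcripts in cultured white adipocytes of the mouse. The 8 genes were taken by name from the table of raw counts, which holds 18804 genes, and comprised the perilipins Plin1, Plin2, Plin3, Plin4 and Plin5, the fusion protein Cidec, and Bscl2 and Fitm2, which act where droplets bud from the endoplasmic reticulum (ER). All 8 were among the 14293 genes that passed the filter on low counts. The study asked how adipocytes adapt to cool surroundings, and it sequenced RNA from 3 groups of 5 libraries. Every library came from C57BL/6J cells, which the methods describe as wild type. They were mesenchymal stem cells from the ear, turned into adipocytes with methylisobutylxanthine, dexamethasone, insulin and troglitazone, and were harvested 16 days after induction. Another paragraph of the methods names rosiglitazone in place of troglitazone. Day 0 cells stayed at 37°C throughout, day 1 cells spent their last day at 31°C, and day 12 cells spent their last 12 days there. All 3 groups thus share the induction and the age of the culture, while the day 12 cells were cooled much earlier in their maturation. The age and sex of the mice are not given, and the labels do not say whether the 5 libraries of a group are 5 mice or 5 dishes, so p-values measure the spread between these libraries, which may be technical.

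A lipid droplet is a core of triglyceride inside a single layer of phospholipid, and perilipins cover that surface and control which lipases reach the core. White adipocytes keep a single large droplet. Cidec passes lipid from small droplets to larger ones where they touch, seipin (the protein of Bscl2) marks the ER sites where droplets begin, and FIT2 (the protein of Fitm2) helps them leave the ER in the right direction. Loss of seipin, of perilipin 1 or of the human form of Cidec is known to cause lipodystrophy, a lack of functional fat tissue.

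Total counts ranged from 64648178 to 133270973 per library, and between libraries of a group the common coefficient of variation was 5.25%. The unit of level used throughout is CPM, a gene's share of its library's counts after TMM scaling, which compares libraries of unequal depth. The summed level of 9 adipocyte markers was 5494 to 6114 CPM in the 37°C libraries, 6752 to 7251 after 1 day and 5335 to 5926 after 12 days, so RNA of the labelled cell type was present in each group. Of these 9, adiponectin (Adipoq) averaged 1095, 1126 and 464.3 CPM in the same order. Pparg averaged 118.7, 95.87 and 78.63 CPM, while Fabp4 rose, at 827.8, 1399 and 1617 CPM. By the rule given below for the droplet genes, 2 of the 9 were called higher and 1 lower after 1 day, beside 21.1% of all genes. After 12 days 3 were called higher and 4 lower, beside 29.2% of all genes. The part of these 9 in the results was not tested. Markers of fibroblasts and progenitors were also high, at 1470 to 1538, 1513 to 1592 and 1317 to 1332 CPM for 7 genes at days 0, 1 and 12. Within that list Ly6a (-1.42) and Dlk1 (-0.90) were called lower at day 12, and Pdgfrb (0.49) and Pdgfra (0.34) were within the fold limit, all as log2 fold changes. The 3 chondrocyte markers summed to 233.9 to 325.5 CPM over all libraries, with Acan (-0.97) and Sox9 (-0.79) called lower at day 12 and Col2a1 at 0.29. In such bulk RNA, fewer cells of a type and less RNA per cell cannot be told apart. Of 4 mesothelial markers, which summed to at most 1.423 CPM at days 0 and 1 and to 22.41 to 37.08 CPM at day 12, Msln alone rose, from 0.628 to 29.3 CPM, while Lrrn4 was at 0.459 and 0.339 CPM, Upk3b near 0.02 and Wt1 at 0 at day 12. The part of these markers in the day 12 results was not tested.

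Cidec fell steeply within 1 day of cooling and was still far below its 37°C level at day 12. Fitm2 rose at day 1 and, with TMM scaling, was close to its starting level again at day 12. No perilipin passed the fold limit, but Plin1 and Plin4 stood above every 37°C library at both times. Calls needed an edgeR quasi-likelihood p, adjusted by Benjamini-Hochberg over all genes tested, under 0.05 together with a fold change over 1.5, the limits the authors used. At day 1 against day 0, 2 of the 8 genes were called, Fitm2 higher and Cidec lower, where 21.1% of all genes tested were called, 7.71% of them higher and 13.4% lower. At day 12 against day 0 only Cidec was called, beside 29.2% of all genes, of which 16.2% in its direction and 13% in the other. At day 12 against day 1 again only Cidec was called, now higher, beside 19.1% of all genes, with 10.6% in that direction and 8.53% in the other. The median log2 fold change of the 8 genes was 0.09 at day 1, against -0.0088 over all genes, and 0.0074 at day 12, against 0.01. The 8 were split in direction, with 4 values above 0 and 4 below at each time. The 5 libraries of one group lay wholly apart from those of the other for 6 of the 8 genes at day 1, where this held for 57.4% of all genes, for 5 of the 8 at day 12, against 64.6%, and for 7 of the 8 between the cooled groups, against 52.5%. By the adjusted p alone, without the fold limit, all 8 genes passed at day 1, 5 at day 12 and 7 between the cooled groups, while 71.5%, 76.6% and 67.2% of all genes did so. The genes whose pass was lost in an alternative fit were Plin3 at day 1, Bscl2 at day 12, and Plin2, Plin5 and Bscl2 between the cooled groups, as given with each gene.

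**Figure D1:**
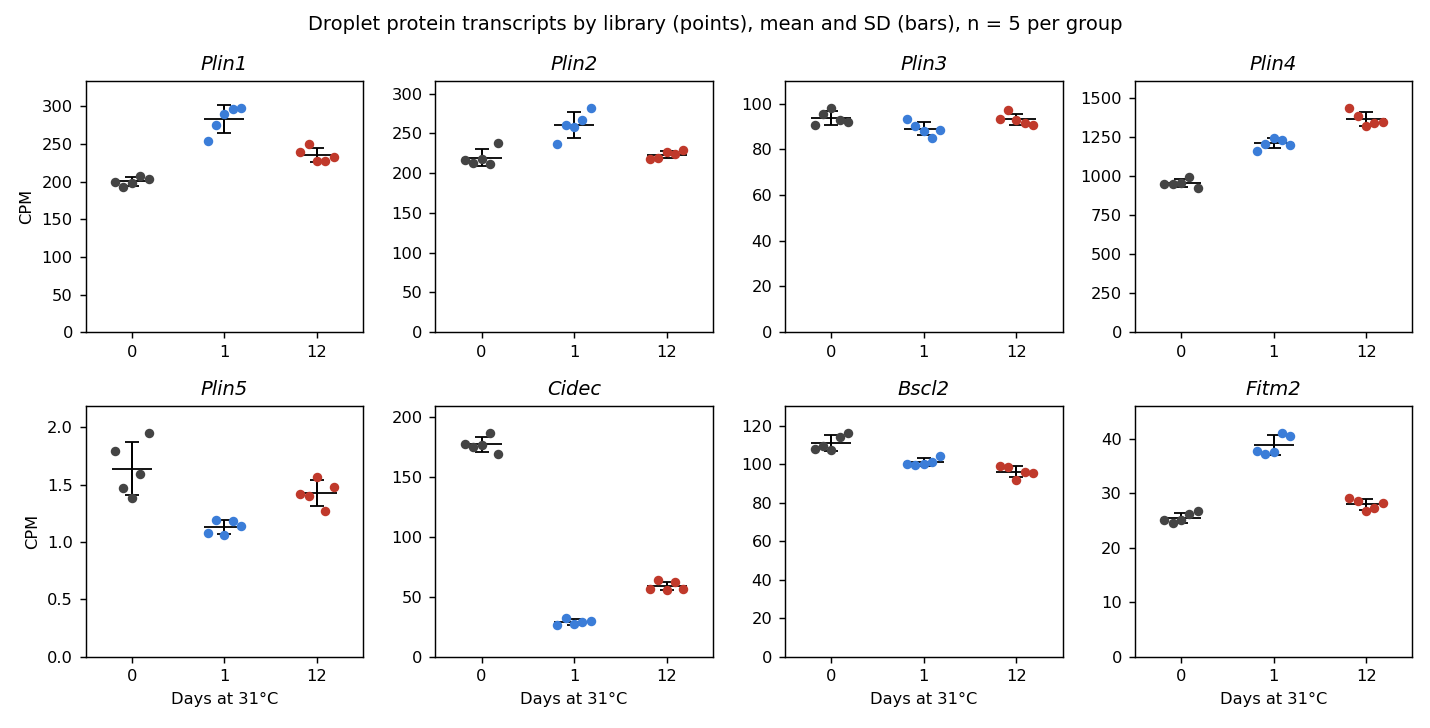
Level of each of the 8 transcripts in CPM (vertical axes, each from 0) in the 5 libraries at 0, 1 and 12 days at 31°C. Points are libraries and bars are the mean and SD. Cidec drops from 176.8 CPM to 28.85 at day 1 and stands at 58.97 at day 12, Fitm2 peaks at day 1, Plin4 is highest at day 12, and Plin3 lies between 85.18 and 98.12 in all 15 libraries.

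Cidec lies on chromosome 6 (chr6:113424634-113435760, minus strand, GRCm38, the build called mm10), and none of its exon bases is shared with another gene. It is the main fat-specific member of the CIDE family, named for a domain shared with a DNA fragmentation factor. RefSeq gives it a pair of start sites, and the DNA from 250 bases before to 50 bases after each is shown because Cidec had the largest change of the 8. The Cidec window on the minus strand at chr6:113434715-113435014 holds a match, in capitals, to TTNNGCAA, letters that C/EBP transcription factors can bind. The match starts 198 bases upstream of the start site. The window at chr6:113435711-113436010 holds no match to any of the letters searched.

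Cidec, inner start: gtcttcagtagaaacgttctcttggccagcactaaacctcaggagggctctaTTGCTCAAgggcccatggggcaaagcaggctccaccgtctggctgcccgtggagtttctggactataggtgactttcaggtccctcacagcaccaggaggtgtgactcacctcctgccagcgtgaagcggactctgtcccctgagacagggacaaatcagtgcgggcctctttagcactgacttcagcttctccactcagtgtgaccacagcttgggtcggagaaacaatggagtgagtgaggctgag
Cidec, outer start: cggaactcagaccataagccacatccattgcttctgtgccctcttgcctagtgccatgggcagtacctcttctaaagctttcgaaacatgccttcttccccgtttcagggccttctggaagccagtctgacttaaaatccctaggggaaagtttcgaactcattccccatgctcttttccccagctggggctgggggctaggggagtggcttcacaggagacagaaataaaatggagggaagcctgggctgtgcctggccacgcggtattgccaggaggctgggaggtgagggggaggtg

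Cidec held 177.3, 175.1, 176.3, 186.7 and 168.8 CPM in replicates 1 to 5 at day 0. At day 1 it held 26.29, 32.27, 27.32, 28.76 and 29.6 CPM, and at day 12 it held 56.8, 63.67, 55.48, 62.18 and 56.72 CPM. The 3 groups did not overlap in any pair, and every day 12 library lay between the cooled day 1 libraries and those at 37°C. Raw counts behind these levels were 15466 to 22350 in the 37°C libraries, 2053 to 3022 after 1 day and 4362 to 5669 after 12 days. The mean fell from 176.8 ± 6.41 CPM (SD, n = 5) to 28.85 ± 2.30, which was 6.13-fold lower, with a log2 fold change of -2.62 ± 0.048 (SE, adjusted p = 1.16e-22). Among the 14293 genes tested, 52 had a lower log2 fold change at day 1. At day 12 Cidec stood at 58.97 ± 3.69 CPM, 3-fold lower than at 37°C, with a log2 fold change of -1.59 ± 0.045 (adjusted p = 1.08e-19), and 577 genes had a lower one. The rise from day 1 to day 12 was 2.04-fold, a log2 difference of 1.03 ± 0.047 (adjusted p = 1.97e-15). Cidec thus remained below its 37°C level while being higher than after 1 day, and each of its 3 calls held in every alternative fit. The titles of 4 libraries carry sample numbers from a later series, and with only the others the log2 fold changes of Cidec were -2.64, -1.59 and 1.06.

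Fitm2 was the one gene of the 8 called higher at day 1. It lies on chromosome 2 (chr2:163466379-163472629, minus strand, GRCm38), with 5.72% of its exon bases shared with 2310001K24Rik on the opposite strand. Its product binds diacylglycerol and triglyceride in the ER membrane. The 300 bases around its start, at chr2:163472580-163472879, hold 1 match to GGGCGG, the letters of a GC box, in capitals. The window is shown because Fitm2 moved opposite to Cidec at day 1. The letters matched in either do not occur in the other, and their part in the changes was not tested.

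Fitm2: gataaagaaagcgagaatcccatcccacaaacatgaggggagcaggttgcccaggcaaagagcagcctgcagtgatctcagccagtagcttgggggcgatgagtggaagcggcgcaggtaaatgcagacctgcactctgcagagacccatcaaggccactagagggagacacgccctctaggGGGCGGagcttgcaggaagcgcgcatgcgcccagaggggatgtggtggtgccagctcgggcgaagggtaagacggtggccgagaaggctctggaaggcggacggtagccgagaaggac

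The level of Fitm2 was 25.08, 24.51, 25.08, 26.23 and 26.67 CPM in the libraries at 37°C. After 1 day at 31°C it was 37.69, 37.3, 37.52, 41.14 and 40.45 CPM, and after 12 days it was 29.06, 28.65, 26.69, 27.21 and 28.24 CPM. No day 1 library overlapped either other group, and the lowest day 12 library lay just above the highest at 37°C. Fitm2 rose 1.52-fold at day 1, with a mean of 38.82 ± 1.82 CPM against 25.51 ± 0.90 (SD, n = 5). On the log2 scale the change was 0.61 ± 0.038 (SE, adjusted p = 6.22e-13). This lies close to the fold limit of 0.585 on the log2 scale, and the call was lost when libraries were scaled to 3 reference genes (0.51), when only genes averaging 10 CPM or more were kept (0.56) and without the later sample numbers (0.57). At day 12 its mean was 27.97 ± 0.99 CPM, a log2 fold change of 0.13 ± 0.038 (adjusted p = 0.00287). The 95% interval with TMM scaling was 0.05 to 0.21, which excludes the fold limit. With total counts the median of all genes stood at 0.205 at day 12, so the size of this change depends on the scaling. From day 1 to day 12 the log2 difference was -0.47 ± 0.038 (adjusted p = 8.32e-11), which was past the adjusted p but within the fold limit.

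Bscl2, the seipin gene on chromosome 19 (chr19:8837467-8848683, plus strand), had a much smaller difference. A share of 10.8% of its exon bases lies in other genes, of which 4.05% are in AC129217.1 on the same strand and 6.75% in Gng3 on the opposite one, so its counts could include reads of these. The range of Bscl2 was 107.3 to 116.6 CPM at 37°C, 99.82 to 104.6 after 1 day and 92.15 to 98.97 after 12 days. Both cooled groups lay wholly below the 37°C group, a pattern that only Cidec shared among the 8. The log2 fold change was -0.13 ± 0.029 at day 1 (SE, adjusted p = 0.000233) and -0.21 ± 0.029 at day 12 (adjusted p = 5.98e-07), both within the fold limit. With total counts the day 12 value was -0.01 (adjusted p = 0.657). Between days 1 and 12 the log2 difference was -0.07 ± 0.029 (adjusted p = 0.028), and it was above 0 when scaled to total counts (0.10) or to the reference genes (0.08). Its adjusted p was also over 0.05 with the 10 CPM filter (0.125), without the later sample numbers (0.184), and without day 1 replicate 5 (0.0761) or day 12 replicate 3 (0.0936) or 5 (0.0541). The level of Fitm2 per kilobase of exon was 0.3412 ± 0.0056 of that of Bscl2 at 37°C, 0.5695 ± 0.0204 after 1 day and 0.432 ± 0.0072 after 12 days (SD, n = 5), with no test. The ratio depends on the length used, and with the longest transcript of each it was 0.2022, 0.3375 and 0.256.

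Of the 5 perilipins, Plin1 and Plin4 lay above the 37°C level at both times. Plin1 encodes the perilipin of the mature adipocyte, which holds back the lipase ATGL until it is phosphorylated. The gene lies on chromosome 7 (chr7:79720218-79732903, minus strand). Its promoter window at chr7:79732727-79733026 is shown because it holds the same C/EBP-type letters as that of Cidec, in a gene whose level was higher at day 1. The letters occur at 2 places, starting 187 and 58 bases upstream.

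Plin1: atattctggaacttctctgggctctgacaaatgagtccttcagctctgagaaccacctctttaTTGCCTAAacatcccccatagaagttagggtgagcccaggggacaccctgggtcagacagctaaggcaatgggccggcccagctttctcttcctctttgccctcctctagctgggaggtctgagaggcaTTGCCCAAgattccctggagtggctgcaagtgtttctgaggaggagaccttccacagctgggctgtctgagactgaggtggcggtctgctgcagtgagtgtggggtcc

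The C/EBP-type letters were found in 2 of the 12 RefSeq windows of the 8 genes and in 10.8% of 32851 mouse windows of the same length, read on both strands. GC boxes stood in 6 of the 12 and in 35.7% of all windows. CCAAT stood in 5 of the 12 and in 37.4% of all. The letters AGGTCA, which single nuclear receptors bind, stood in 4 of the 12 and in 16.3% of all, and a direct repeat of it with 1 base between in none of the 12 and in 0.0396% of all. The letters TATAAA stood in none of the 12 and in 13.6% of all, and CACGTG in 1 of the 12 and in 7.15% of all. Such matches describe the letters only, no binding was measured, and a link between the letters and the levels was not tested.

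Plin1 held 199.1, 193, 197.7, 207.6 and 203.9 CPM at day 0. It held 253.9, 275.4, 289.8, 296.9 and 297.9 CPM at day 1 and 239.5, 249.7, 227.5, 226.9 and 233.2 CPM at day 12. All 3 groups were apart, with day 1 highest and day 0 lowest. The log2 fold change was 0.50 ± 0.038 at day 1 (SE, adjusted p = 2.14e-11), or 1.41-fold, and its 95% interval of 0.42 to 0.58 ends just short of the fold limit. It was 0.23 ± 0.038 at day 12 (adjusted p = 5.13e-06). Between days 1 and 12 Plin1 had a log2 difference of -0.26 ± 0.038 (adjusted p = 1.16e-06). While Cidec was at its lowest, Plin1 was therefore at its highest.

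Plin4 coats small, newly formed droplets in adipocytes and carries a long repeated helical stretch. It lies on chromosome 17 (chr17:56100591-56109803, minus strand), 1797 bases from its neighbour Plin5. Its level was 950, 946.8, 957.7, 995.5 and 926.2 CPM at day 0 and 1164, 1203, 1246, 1234 and 1200 CPM at day 1. At day 12 it was 1437, 1387, 1319, 1343 and 1345 CPM, above every other library. Plin4 was the one gene of the 8 whose mean was higher at each later time. Its log2 fold change was 0.34 ± 0.028 at day 1 (SE, adjusted p = 1.15e-10) and 0.52 ± 0.028 at day 12 (adjusted p = 2.94e-14), the latter 1.43-fold. At day 12 the 95% interval was 0.46 to 0.58, within the fold limit, but scaling to total counts gave 0.71, past it, in a fit where the median of all genes stood at 0.21. The difference between days 1 and 12 was 0.18 ± 0.028 on the log2 scale (adjusted p = 6.66e-06).

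Plin5, the perilipin that links droplets to mitochondria in cells that burn fat, was barely expressed. It held 1.793, 1.475, 1.387, 1.592 and 1.954 CPM at day 0, from 137 to 226 counts per library. It held 1.076, 1.194, 1.065, 1.186 and 1.136 CPM at day 1, from 84 to 116 counts, and 1.423, 1.4, 1.567, 1.269 and 1.478 CPM at day 12, from 89 to 143 counts. Day 1 lay below both other groups, whereas days 0 and 12 overlapped. After 1 day the log2 value was -0.54 ± 0.131 (SE, adjusted p = 0.000776), within the fold limit. It passed that limit when day 0 replicate 3 was left out (-0.59) and with the reference genes (-0.63). At day 12 the value was -0.20 ± 0.128, with a 95% interval of -0.46 to 0.06 that lies inside the fold limit (adjusted p = 0.159). Between days 1 and 12 the log2 difference was 0.34 ± 0.133 (adjusted p = 0.0283). That adjusted p was over 0.05 without the later sample numbers (0.086), and without replicate 1 or 3 of day 1 (0.0529 and 0.0597) or replicate 3 or 5 of day 12 (0.0654 and 0.0514).

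Plin2 and Plin3, which are found in most cell types, were the perilipins that stayed closest to their 37°C levels with TMM scaling. Plin2 (chr4:86648386-86670060, minus strand) coats small droplets and is degraded when it has no lipid to bind. Its range was 212.1 to 237.8 CPM at 37°C, 236.7 to 282.1 after 1 day and 217.6 to 228.9 after 12 days. Day 1 replicate 1 lay within the range of day 0, whose upper end was set by replicate 5, and the other day 1 libraries lay above it. The log2 fold change was 0.25 ± 0.037 at day 1 (SE, adjusted p = 2.06e-06) and 0.03 ± 0.037 at day 12, where the 95% interval was -0.05 to 0.10 (adjusted p = 0.548). From day 1 to day 12 it was lower by a log2 difference of -0.23 ± 0.038 (adjusted p = 1.1e-05). With total counts Plin2 was at 0.22 at day 12 (adjusted p = 1.17e-05), near the median of all genes of 0.21 in that fit, and between the cooled groups at -0.05 (adjusted p = 0.208), or -0.07 with the reference genes (adjusted p = 0.102). Plin3 (chr17:56277476-56292873, minus strand) moves from the cytosol to nascent droplets. Levels were 90.46 to 98.12 CPM at 37°C, 85.18 to 93.25 after 1 day and 90.6 to 97.15 after 12 days, with overlap between all groups. The log2 fold change was -0.07 ± 0.030 at day 1 (adjusted p = 0.0289) and -0.01 ± 0.030 at day 12, with a 95% interval of -0.07 to 0.05 (adjusted p = 0.758), and the day 12 value was above 0 when scaled to total counts (0.18) or the reference genes (0.05). At day 1 its adjusted p was over 0.05 with total counts (0.11), without the later sample numbers (0.181), with the 2 groups alone (0.056), and without day 0 replicate 2 (0.06) or 3 (0.0922) or day 1 replicate 3 (0.0637), 4 (0.099) or 5 (0.051). Its log2 difference between days 1 and 12 was 0.06 ± 0.030 (adjusted p = 0.0617), and it passed 0.05 with total counts (0.24), the reference genes (0.22), the 10 CPM filter (0.09), and without day 1 replicate 1 (0.08) or day 12 replicate 5 (0.07).

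**Figure D2:**
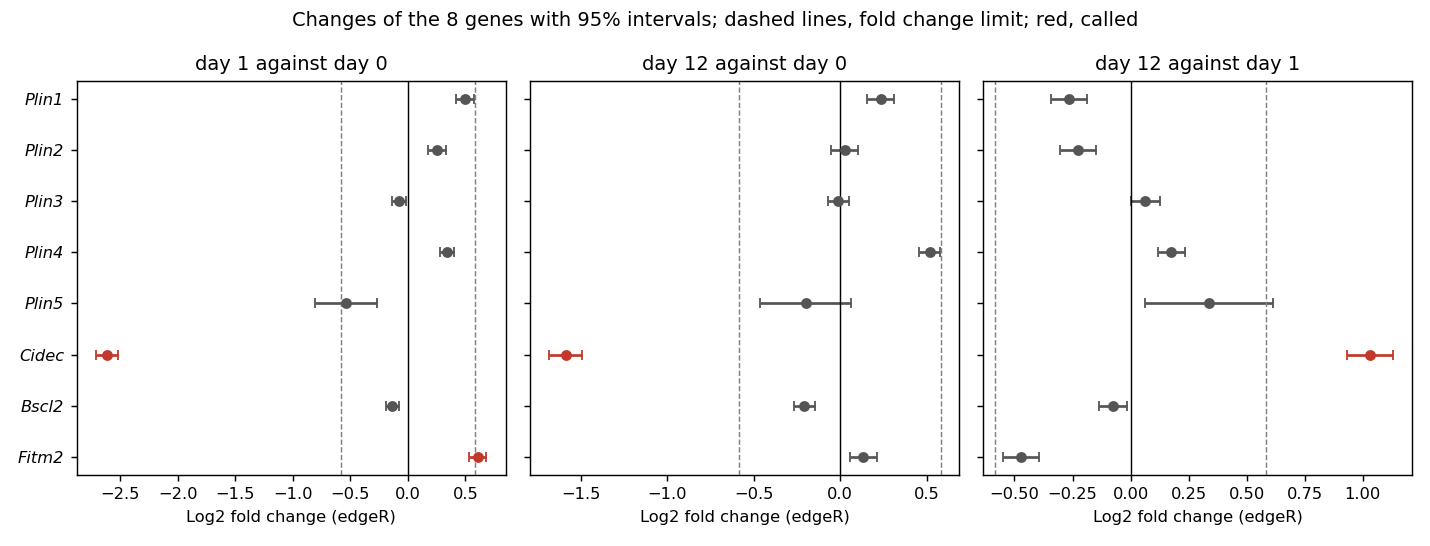
Log2 fold change of each of the 8 genes (horizontal axes, a different range in each panel) in the 3 comparisons, with 95% intervals from the edgeR fit and dashed lines at the fold limit of 0.585. Called genes are red. Cidec lies far outside the limits in all panels, Fitm2 just past it at day 1 with 0.61, and all others between the lines.

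By level per kilobase of exon (CPM per kb), Plin4 was the most abundant of the 8 transcripts at all 3 times, at 165.4 ± 4.39, 209.3 ± 5.57 and 236.5 ± 8.06 in time order (SD, n = 5). Cidec was next at day 0, at 95.28 ± 3.47 CPM per kb, but stood at 15.54 ± 1.24 at day 1, near Bscl2, and at 31.77 ± 1.99 at day 12, between Plin1 and Plin3. Below Plin4 and Cidec at 37°C came Plin2 at 62.45, Plin1 at 43.08, Plin3 at 24.78, Bscl2 at 18.85, Fitm2 at 6.43 and Plin5 at 0.786 CPM per kb. Apart from the place of Cidec, this order was the same in all 3 groups. The libraries of neighbours in the order did not overlap in any group, except those of Bscl2 and Cidec at day 1. The order of 2 pairs at 37°C depends on the length used. With the longest transcript as length Plin2, at 116.2 CPM per kb, stands above Cidec, at 102.8, and Bscl2, at 31.82, above Plin3, at 25.73. The closeness of Cidec to Bscl2 at day 1 depends on the length too. The longest transcript of Bscl2 has 3.495 kb against 5.897 kb of exon, and that of Cidec 1.72 against 1.856 kb.

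**Figure D3:**
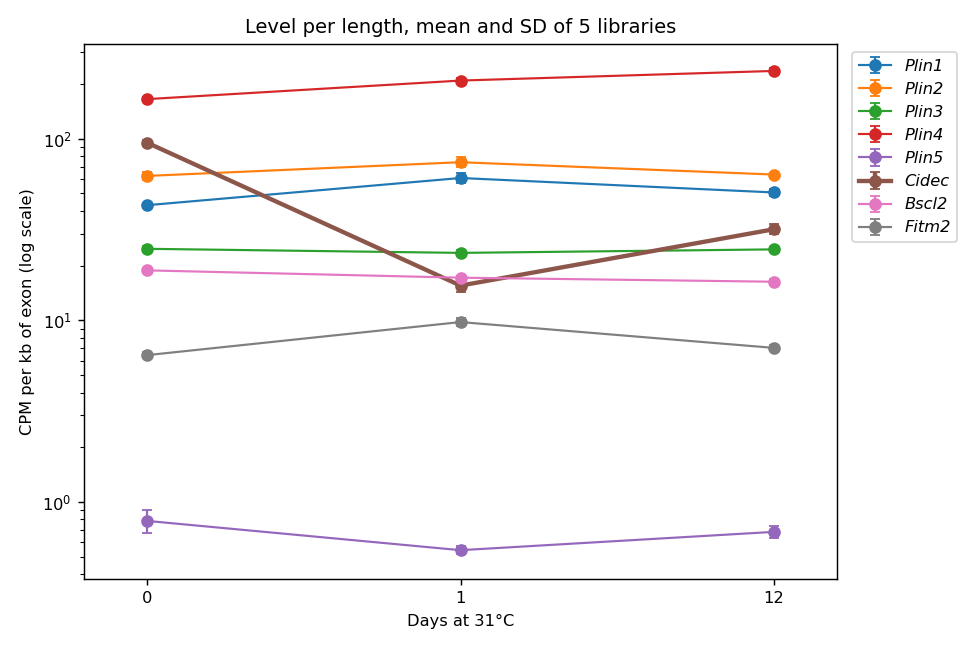
Level per kilobase of exon (vertical axis, CPM per kb, log scale) of the 8 transcripts at 0, 1 and 12 days at 31°C (evenly spaced on the horizontal axis), as the mean of 5 libraries with SD bars. Cidec (thick line) passes from the second place, at 95.28, to 15.54 at day 1, beside Bscl2 at 17.18, while the other lines keep their order.

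The balance between the coat and the fusion protein moved with these levels. Per kilobase of exon, Cidec stood at 221.3% ± 7.95 of Plin1 at 37°C, 25.61% ± 2.26 after 1 day and 62.79% ± 3.65 after 12 days (SD, n = 5). The summed level of the 5 perilipins was 296.4 ± 4.18 CPM per kb at 37°C, 368.6 ± 11.9 after 1 day and 376 ± 8.74 after 12 days, so the cooled groups lay above the 37°C range of 291.7 to 302.7. Plin4 made up 55.78%, 56.82% and 62.89% of that sum at days 0, 1 and 12. The share of Plin2 was 21.07%, 20.15% and 16.92%, that of Plin1 14.53%, 16.49% and 13.46%, and that of Plin3 8.36%, 6.40% and 6.54%. Plin5 stayed under 0.32% in all libraries. These shares follow from the levels above and were not tested. They also depend on the length used, and with the longest transcript Cidec was at 144.7%, 16.75% and 41.05% of Plin1 and Plin4 made up 43.7%, 44.38% and 50.99% of the perilipin sum.

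The genes whose pattern over the 15 libraries was most like that of Cidec were Sh3d19, Magt1 and Hspa5, by Pearson's r of log2 CPM among 12132 genes averaging 1 CPM or more (r = 0.995, 0.995 and 0.994). Hspa5, a chaperone of the ER, stood at 1270, 429 and 646 CPM at days 0, 1 and 12. Those most like Fitm2 were Zfand2a (r = 0.992), Pex19 (r = 0.991) and Prdx1 (r = 0.988). Pex19, which brings membrane proteins to peroxisomes, stood at 112, 162 and 120 CPM. The libraries fall into 3 groups, and the values of r mostly describe the order and spacing of the group means.

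Other genes of droplet biology were taken from a list of 27, of which 25 were tested. After 1 day 3 of the 25 were called higher and 2 lower, beside 21.1% of all genes called. After 12 days 5 were called higher and 6 lower, beside 29.2%, and between the cooled groups 1 higher and 4 lower, beside 19.1%. The median log2 fold change of the list was 0.06 after 1 day and -0.02 after 12 days, against -0.0088 and 0.01 over all genes. Cidea, the relative of Cidec in brown fat, reached at most 16 counts in a library and Hsd17b13 at most 6, and neither passed the filter on low counts. The third CIDE gene, Cideb, was 1.94-fold lower at day 1, at 2.59 CPM against 5.03, but 76.3% of its exon bases lie in Nop9 on the opposite strand, whose reads may not have been kept apart.

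Enzymes of triglyceride synthesis were called in both directions. Agpat2, which makes phosphatidic acid and whose loss causes lipodystrophy as that of seipin does, rose from 21.5 CPM to 39.6 after 1 day and 66.3 after 12 days, with log2 fold changes of 0.89 ± 0.046 (SE, adjusted p = 2.08e-14) and 1.63 ± 0.046 (adjusted p = 8.95e-20). Dgat1 and Dgat2 both perform the last step, Dgat1 in the ER and Dgat2 also at the droplet surface. Dgat1 was called higher at both times, at 0.61 and 0.71, but its day 1 value did not pass the fold limit when day 1 replicate 5 (0.58) or the later sample numbers (0.56) were left out, with the 10 CPM filter (0.56) or with the reference genes (0.51). Dgat2 was called lower at day 12 at -0.73 ± 0.034 (adjusted p = 1.29e-15), and not when scaled to total counts (-0.53). Lpin1, which makes diacylglycerol for the budding droplet, was at 143 CPM at 37°C and fell to 64 after 12 days, with a log2 value of -1.16 ± 0.037 (adjusted p = 6.38e-19). Tmem159, now named Ldaf1, the partner of seipin, was called lower at -0.61 ± 0.042 (adjusted p = 1.71e-12), and not with total counts (-0.42) or the reference genes (-0.56).

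Of 6 genes for lipases at the droplet and their regulators, day 1 brought 1 higher and 1 lower call, beside 21.1% of all genes. After 12 days each direction had 2, beside 13% of all genes called higher and 16.2% lower. Pnpla2, which encodes the lipase ATGL, rose at day 12 by 0.73 ± 0.033 on the log2 scale (adjusted p = 5.78e-16) and was at 0.52 at day 1, within the fold limit. Mgll, which cleaves the last fatty acid, was called higher at day 1 (0.65, or 0.55 and no longer called with the reference genes) and day 12 (1.13). G0s2, an inhibitor of ATGL, was called lower at day 1 (-0.68) and day 12 (-1.11), and Hilpda, another, at day 12 (-1.17). Fitm1, the relative of Fitm2 in muscle, was called higher at day 12 (2.24, adjusted p = 0.0129) with at most 16 counts there and at most 7 at day 0, and the groups overlapped. Hsd17b11, an enzyme of the droplet surface, was called lower between days 1 and 12 (-0.80), and at day 1 it was not called at 0.58 but passed the limit with total counts (0.60), without the later sample numbers (0.59), and, at 0.59, when day 0 replicate 2, or replicate 3 or 4 of day 1, was left out.

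**Figure D4:**
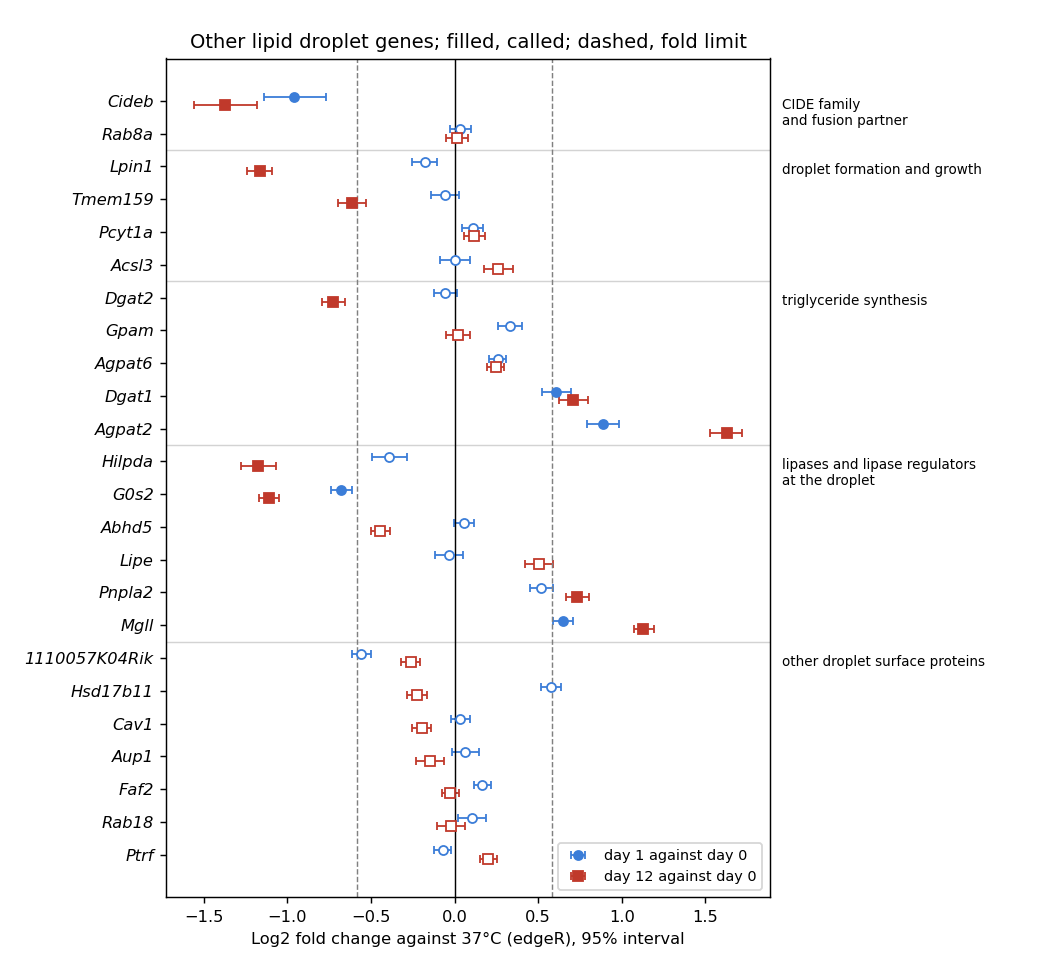
Log2 fold change against 37°C (horizontal axis) at day 1 (blue circles) and day 12 (red squares) for 24 of the 25 other droplet genes tested (Fitm1, with few counts, is left out), by role, with 95% intervals. Filled marks are called and dashed lines mark the fold limit. Agpat2 and Mgll lie farthest to the right at day 12 (1.63 and 1.13) and Cideb, Hilpda, Lpin1 and G0s2 farthest to the left (-1.37, -1.17, -1.16 and -1.11).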

How the data were processed

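RNA was sequenced from 15 libraries of adipocytes, 5 in each group of 0, 1 or 12 days at 31°C, grouped and numbered as labelled. Per the labels, the authors checked reads with FastQC, aligned them to mm10 with TopHat2 2.0.13 and Bowtie2 2.2.1, and deposited raw counts of reads per gene from HTSeq. Strandedness and the release of the annotation were not given in the sources used here, so shared exon bases are stated. The authors also deposited regularized log values and tables of fold changes and p-values from DESeq2, which were not used here.

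Tests used edgeR 4.0.16 (quasi-likelihood) under R 4.3.3 on all 15 libraries together, with TMM scaling, no covariate, and filterByExpr at a minimum count of 10, which left 14293 genes. Standard errors are the log2 value divided by the root of F, and intervals are 95%. Alternatives were DESeq2 1.42.0, total counts, the reference genes Hprt, Tbp and Ppia, other filters, a replicate block, the series of sample numbers in the titles, pairs of groups and each library left out. No pair of libraries of a group agreed within sampling noise. Replicate numbers did not pair the libraries (correlations of deviations -0.03 to 0.04). The fit was tested on simulated data for day 12 against day 0, where 14305 genes were tested. It recovered 100 of 100 genes changed 2-fold and 100 of 100 changed 3-fold, with 1 unchanged gene called. No gene was changed by a size near the fold limit, so the simulation cannot judge calls close to that limit. Far fewer genes were changed than were called in the real data, so it cannot judge the choice of scaling either. All 8 genes are named, and of the other droplet genes those called. Exon positions and lengths came from GENCODE M21 of GRCm38, and promoter windows, found for all 8 genes, from RefSeq on GRCm38.p6. The genes and lists were chosen with earlier results of these data known.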

Additional observations from a re-analysis of the deposited data

Results flagged for a closer look

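Plin2 in day 0 replicate 5 stood apart from the other 4 libraries of its group, at 237.8 CPM against 218 in the nearest. The gap was 0.7704 of the range of the group, over the limit of 0.71 of Dixon's test for 5 values. Among 24 groups of 5 tested, chance flags about 1 in 20. Without that library the log2 fold change of Plin2 at day 12 was 0.06, still within the fold limit. For Cidec, the change at day 12 differed from that at day 1 by 1.03 on the log2 scale, by the test of days 12 and 1 in the report.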

How the results depend on the processing

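Of the log2 fold changes of the 8 genes, 212 values from fits on all libraries or on a chosen part of them kept their direction and call, 18 gained a call, all by dropping the fold limit except Plin5 at day 1 (reference genes) and Plin4 at day 12 (total counts), and 3 lost one, all of them Fitm2 at day 1. With each library left out in turn, 357 kept both. Cidec stayed called, at -2.66 to -2.59 at day 1, -1.61 to -1.56 at day 12 and 1 to 1.07 between them. Plin3 at day 12 turned above 0 with total counts (0.18), with the reference genes (0.046) and without day 0 replicate 3 (0.0065) or day 12 replicate 5 (0.00023), with none called and values from -0.025 to 0.0065 as libraries were left out. Bscl2 between days 1 and 12 turned above 0 with total counts (0.098) and the reference genes (0.080). DESeq2 gave the same calls among the 8.

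Over all genes, 3020, 4172 and 2729 were called at day 1, at day 12 and between them. With genes of a mean of at least 10 CPM these were 1164, 1688 and 898, where fewer genes were tested. Without the fold limit they were 10226, 10950 and 9598, and then 8, 5 and 7 of the 8 genes and 16, 21 and 21 of the other droplet genes passed. Of the 8, 1 was called at day 1 with the 10 CPM filter, and 1 without the later sample numbers (4 libraries), where Fitm2 was no longer called. At day 12, 2 were called with total counts, where Plin4 was added. With each library left out, calls at day 1, at day 12 and between them ranged from 2980 to 3055, from 4139 to 4221 and from 2697 to 2752 over all genes, from 2 to 3, 1 to 1 and 1 to 1 of the 8 genes, and from 4 to 7, 11 to 12 and 5 to 6 of the other droplet genes. Day 0 replicate 3 was the library whose absence added Plin5 at day 1.

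The replicate block, for numbers that do not pair the libraries, gave 3011, 4177 and 2718 calls over all genes, 2, 1 and 1 of the 8 and 5, 11 and 5 of the other droplet genes. With total counts the median of all genes moved to 0.21 at day 12 and 0.18 between the cooled groups, and with the reference genes to -0.11 at day 1 and 0.16 between the cooled groups. The share of calls that were lower, 63.5% at day 1, 55.6% at day 12 and 44.7% between them, became 60.8%, 35.9% and 27.3% with total counts and 75.8%, 49.6% and 29% with the reference genes. With the longest transcript as length, levels at 37°C were 71.07 for Plin1, 116.2 for Plin2, 25.73 for Plin3, 102.8 for Cidec and 31.82 CPM per kb for Bscl2, which put Plin2 above Cidec and Bscl2 above Plin3. Counts were lowest for Plin5 among the 8. The cause of these shifts was not tested where none is stated.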
